A study of Homo sapiens with 6 samples.

Results

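Small nuclear RNAs (snRNAs) are the RNA core of the spliceosome, the machine that removes introns from precursor mRNAs. The major spliceosome is built on U1, U2, U4, U5 and U6, and in it U1 pairs with the start of an intron, U2 pairs with the branch point, and U6 forms the catalytic center together with U2. The minor spliceosome removes a rare class of introns and replaces these RNAs with U11, U12, U4atac and U6atac, while U5 is common to both. Human snRNAs come from many near-identical gene copies and pseudogenes, and U6 and U6atac are made by RNA polymerase III while the others are made by RNA polymerase II.

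The snRNAs described here are 10 genes or pseudogenes, chosen because the study's supplementary list of transcripts regulated by NRAD1 knockdown names them. They are RNU12 and RNU6ATAC of the minor spliceosome, the U6atac pseudogenes RNU6ATAC2P and RNU6ATAC3P, the U1 copies RNVU1-3, RNVU1-4, RNVU1-6 and RNVU1-34, the U2 copy RNU2-63P and the U6 copy RNU6-781P. A transcript cluster is the gene-level probe set of the array. The 10 names matched 13 of the 53617 transcript clusters, and 11 of these hold different values, since RNVU1-3 has a pair of clusters with identical values and RNVU1-4 has 3 clusters of which a pair is identical. RNVU1-34 is listed under an older symbol, RNU1-85P, and was found through the synonyms of RefSeq. The platform annotation names none of these snRNAs, so the names rest on that list alone. Since copies of an snRNA are nearly the same in sequence, signal at one copy may come in part from another, and mature snRNA was not told apart from longer transcripts across the same sequence.

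The cell line, MDA-MB-468, derives from a human breast cancer of the triple-negative, basal-like type. A GapmeR is a modified antisense oligonucleotide that binds a chosen RNA and directs its cleavage by RNase H. All cells were exposed to a transfection reagent and to 15 nM of a GapmeR for 48 h, either a control GapmeR (n = 3) or GapmeR#4 (n = 3), which was designed against the long noncoding RNA NRAD1 (LINC00284). Total RNA of each sample was measured on 1 Affymetrix Human Gene 2.0 ST array, a random-primed assay that covers noncoding transcripts, and values are log2 signals. A single cell line and a single NRAD1 GapmeR were used, and effects of NRAD1 loss cannot be told apart from other effects of this oligonucleotide. The labels call the samples biological replicates without saying how the cultures were separated, so the spread behind each p-value may be technical.

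The arrays were alike in scale. Their median log2 signals were 3.96 to 4.01, and Pearson correlations of a pair of arrays over all clusters were 0.988 to 0.990 within groups and 0.982 to 0.985 across them. The epithelial genes EPCAM, EGFR, KRT18, KRT8, KRT5 and KRT14 were above the array medians, with control means between 5.55 for KRT14 and 11.5 for EPCAM. The progesterone receptor gene PGR and the endothelial gene PECAM1 were below the median on all 6 arrays, and the estrogen receptor gene ESR1 lay at it, with a control mean of 4.11. KRT17, ERBB2, PTPRC, COL1A1 and COL1A2 had no named transcript cluster and were not checked. NRAD1 itself gave 3.43, 3.46 and 4.01 in control and 2.96, 2.99 and 2.90 with GapmeR#4. The groups did not overlap, but the change of -0.69 (SE 0.17) did not pass limma (adjusted p = 0.0908). The exact permutation p of 0.1, 2-sided, is the smallest that 3 against 3 arrays allow. Only control replicate 3 lay above its array median, so this change rests on low signal and its size is uncertain. The paper reports lower levels of this RNA by quantitative PCR in the same cell line with the same GapmeR.

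In all 11 snRNA clusters the lowest GapmeR#4 array lay above the highest control array. The log2 changes, given throughout as GapmeR#4 minus control, ran from 1.25 to 2.71 with a median of 1.47, or 2.77-fold. These changes are a description and carry no test, because the list was drawn from the same contrast on the same arrays. Of all 53617 clusters, 12.2% had groups that did not overlap with GapmeR#4 higher, and limma (moderated linear model on all clusters, Benjamini-Hochberg adjusted p under 0.05) called 1.15% higher and 1.42% lower. A change at least as large as the lowest among the 11 was held by 162 clusters, or 0.302%. Besides a p-value limit of 0.05, the list keeps changes of more than 1.7-fold. That fold is 0.77 on the log2 scale and was passed by 1.48% of all clusters upward and 1.33% downward. Both limits favour groups that do not overlap, so the separation of all 11 is no finding beside the 12.2%. The snRNAs just outside the fold limit carry no name in the sources used here. The nearest rises inside it, RNU5D-1, RNU1-96P and RNU6-661P, were 0.87.

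**Figure D1:**
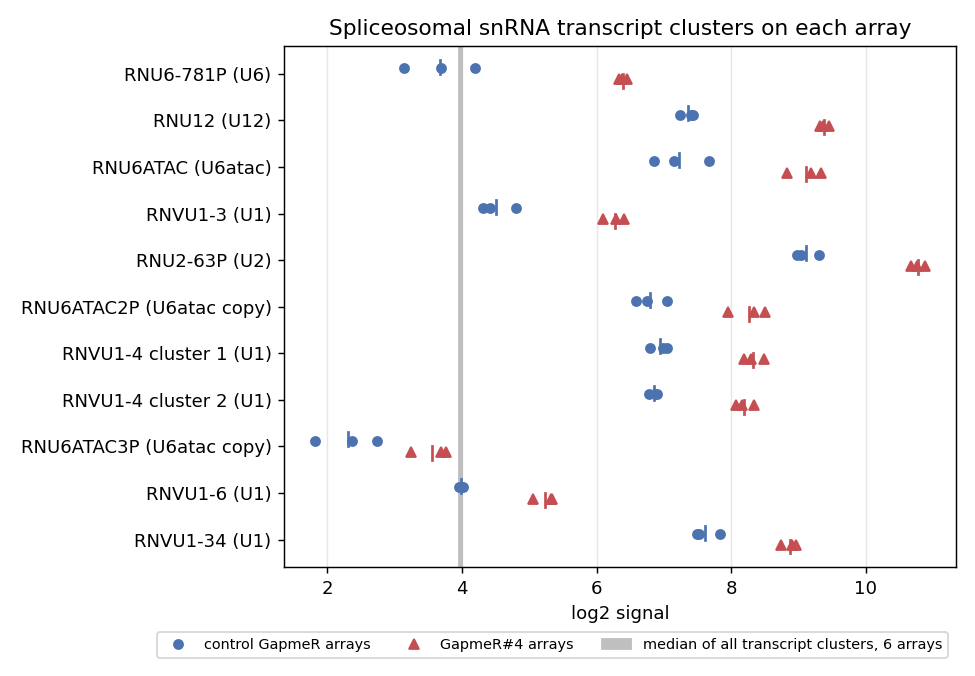
Log2 signal of each of the 11 snRNA transcript clusters (rows, with their snRNA family) on the 3 control GapmeR arrays (circles) and the 3 GapmeR#4 arrays (triangles), with group means as short vertical lines and the range of the 6 array medians as a grey band. In every row all triangles lie to the right of all circles, with gaps of 0.49 for RNU6ATAC3P to 2.13 for RNU6-781P.

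The minor spliceosome snRNAs RNU12 and RNU6ATAC had the largest changes after RNU6-781P. RNU12, the U12 gene, whose RNA recognizes the branch point of minor introns, gave log2 signals of 7.40, 7.44 and 7.24 in control replicates 1 to 3 and 9.33, 9.36 and 9.45 in GapmeR#4 replicates 1 to 3. Its group means were 7.36 ± 0.10 and 9.38 ± 0.06 (SD, n = 3), a 4.05-fold difference, and replicates within a group lay within 0.19 of each other. Only 16 clusters of the whole array, RNU12 included, had a change at least as large, which is 0.0298%.

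RNU6ATAC, whose RNA takes the place of U6 in the catalytic center of the minor spliceosome, gave 7.68, 6.85 and 7.15 in control and 8.82, 9.19 and 9.33 with GapmeR#4. Its means were 7.23 ± 0.42 and 9.11 ± 0.26 (SD, n = 3), or 3.70-fold. The control arrays were more spread than for RNU12, over 0.83, with replicate 1 highest, yet the lowest GapmeR#4 array was 1.15 above that replicate.

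The U6atac pseudogene copies changed less than RNU6ATAC. RNU6ATAC2P gave 7.05, 6.75 and 6.59 in control and 7.95, 8.34 and 8.50 with GapmeR#4, a change of 1.47. The order of the GapmeR#4 replicates, and control replicate 1 as the highest, were as for RNU6ATAC, and the list annotates both clusters with both names. RNU6ATAC3P gave 2.36, 2.75 and 1.82 against 3.69, 3.76 and 3.24. It lay below the array median on all 6 arrays, so its change of 1.25 rests on low signal, and its gap between groups, 0.49, was the smallest of the 11.

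The 5 clusters of U1 copies had a median change of 1.34, or 2.53-fold. RNVU1-3 had the largest, 1.76, from 4.41, 4.32 and 4.81 in control to 6.10, 6.30 and 6.41 with GapmeR#4. The RNVU1 genes are variant U1 genes, copies that differ from the canonical U1 at some positions. The clusters of RNVU1-4 gave nearly the same values, the first 6.98, 6.79 and 7.04 against 8.19, 8.29 and 8.49, and the second 6.87, 6.77 and 6.90 against 8.07, 8.16 and 8.34. Their changes were 1.39 and 1.34.

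RNVU1-6 had the tightest control values of the 11, 3.96, 3.98 and 4.01, at the level of the array median. With GapmeR#4 it gave 5.05, 5.34 and 5.33, a change of 1.25. RNVU1-34 gave 7.49, 7.52 and 7.84 against 8.74, 8.96 and 8.90, also a change of 1.25. Both had non-overlapping groups, with gaps of 1.04 and 0.90.

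RNU2-63P, a pseudogene of U2, the major counterpart of U12, gave 8.98, 9.04 and 9.31 in control and 10.76, 10.67 and 10.88 with GapmeR#4, a 3.17-fold difference of 1.66 on the log2 scale. RNU6-781P, a U6 pseudogene, had the largest measured difference, 2.71 on the log2 scale, from scattered control values of 4.20, 3.14 and 3.69 to close GapmeR#4 values of 6.38, 6.33 and 6.45. Its control SD was 0.53 and its GapmeR#4 SD 0.06 (n = 3), and only control replicate 1 was above the array median, so this difference rests on low control signal and its size is uncertain.

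Set side by side, RNU12 and RNU6ATAC had a median change of 1.95, or 3.87-fold, and the 7 clusters of U1, U2 and U6 copies one of 1.39, or 2.61-fold. The difference between these medians was 0.57. Of the 7 major copies, 6 changed less than both minor snRNAs and 1, RNU6-781P, changed more. No test was made of this difference, which rests on 2 minor and 7 major clusters chosen on the same contrast. With the mean in place of the median over copies it was 0.33, and with the U6atac pseudogenes counted as minor it was 0.29. RNU4ATAC, a minor spliceosome snRNA of the same list, is not 1 of the 10 genes described here and was left out. Its change of 0.92 was below that of all 7 major copies, so the order does not hold for every minor snRNA.

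Within groups, the U1 and U2 copies shared their highest control array and mostly their high and low GapmeR#4 arrays. Their lowest control array was replicate 1 in 3 clusters and replicate 2 in 3. Control replicate 3 was the highest control array in all 6 of these clusters, GapmeR#4 replicate 1 the lowest GapmeR#4 array in 5 of them and GapmeR#4 replicate 3 the highest in 4. For RNU6ATAC, RNU6ATAC2P and RNU6ATAC3P, control replicate 3 was never the highest and control replicate 1 was the highest in 2 of 3. The GapmeR#4 order was not particular to U1 and U2. GapmeR#4 replicate 1 was also the lowest for RNU12 and 2 of these 3 clusters. GapmeR#4 replicate 3 was the highest for RNU12, RNU6-781P and 2 of these 3. The deviations from the group means had a Pearson r of 0.96 between the RNVU1-4 clusters, 0.93 between RNVU1-3 and RNVU1-34, 0.81 between RNVU1-3 and RNU2-63P and 0.81 between RNU6ATAC and RNU6ATAC2P. Likeness did not follow family throughout. It was -0.36 between RNU6ATAC and its copy RNU6ATAC3P. Across families it was 0.86 between RNU6ATAC and RNU6-781P and 0.71 between RNU6ATAC and the first RNVU1-4 cluster. Other pairs across families were low, at 0.14 for RNU2-63P and RNVU1-6 and 0.20 for RNU12 and RNU6ATAC. These are over 6 arrays, share the same libraries, and for copies of 1 snRNA may share sequence.

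The list names further snRNAs that were likewise picked on these arrays. It holds 28 snRNA clusters with different values, 22 higher and 6 lower with GapmeR#4, and 11 of the higher ones are those above. Among the others, RNU4ATAC, whose RNA pairs with U6atac before activation of the minor spliceosome, gave 9.28, 9.08 and 8.78 against 9.87, 10.00 and 10.05, a change of 0.92. RNU5D-1, a copy of the U5 gene used by both spliceosomes, changed by 0.87, and the U1 variants RNVU1-14 and RNVU1-15 by 1.18 and by 1.31 and 1.15 in its 2 clusters. The changes of RNU4ATAC and RNU5D-1 were below those of all 11 clusters above. The 6 lower snRNAs, all copies of U2, U6 or U6atac such as RNU2-50P and RNU6-1026P, changed by -0.77 to -1.11 from control means between 2.31 and 3.83, and 5 of them were below the array median on all 6 arrays. Of the 22 higher ones, 7 were below the median on all control arrays.

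Small noncoding RNAs named by the platform annotation were not chosen on these values. Changes ran from -1.60 to 0.75 in its scaRNAs and from -0.05 to 0.27 in RMRP, RPPH1 and the vault RNAs. The 11 snRNA clusters were picked for large change, so their lowest value is no yardstick for these RNAs. The scaRNAs guide chemical modification of spliceosomal snRNAs in Cajal bodies. Of 23 scaRNA clusters, 1 was called higher and 0 lower by limma. In 10 the groups did not overlap with GapmeR#4 higher, and in 1 with GapmeR#4 lower. Over all clusters these shares were 12.2% and 10.8%. Of the 16098 named clusters, 2428 (15.1%) did not overlap with GapmeR#4 higher and 2674 with GapmeR#4 lower. The median change of the scaRNAs was 0.29, beside 0.02 over all clusters. The called one, SCARNA17, gave 8.91, 8.80 and 8.89 against 9.39, 9.47 and 9.47, a change of 0.58 (SE 0.09, adjusted p = 0.0319). That call was lost when any 1 array was left out (adjusted p = 0.0733 to 0.132).

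SCARNA3 went the other way without passing the test, at 5.37, 6.82 and 5.56 against 4.27, 4.25 and 4.43 (change -1.60, adjusted p = 0.0667). It lies within COP1 by the RefSeq annotation, and the COP1 cluster, chosen after its values were seen, fell by 1.71 (adjusted p = 0.0071, limma). The 6 clusters of RMRP, RPPH1 and the vault RNAs, other short transcripts of RNA polymerase III, had a median change of -0.0055, with 0 called. At an unadjusted limma p under 0.05, 10 of the scaRNAs and these RNAs were higher and 1 was lower, where 8.68% of all clusters were higher and 8.13% lower (10.3% and 12.4% of the clusters that carry a gene name). Of 1200 microRNA precursors, 4 were called higher and 6 lower by limma, with a median of 0.03. Beside the 1.15% and 1.42% of all clusters called higher and lower, these calls are no finding about microRNA precursors. The change of the lowest snRNA was reached by 2 of them, beside 0.302% of all clusters. That snRNA was picked for large change, so its value is no yardstick for microRNA precursors either.

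**Figure D2:**
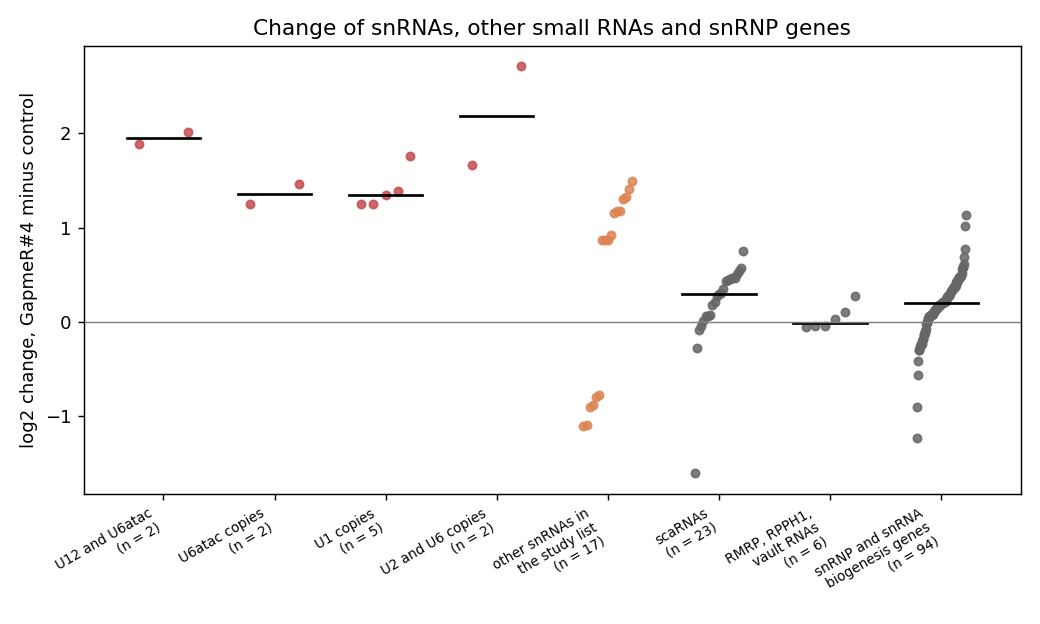
Log2 change (GapmeR#4 minus control, vertical axis) of each transcript cluster or gene (points) by class (horizontal axis), with medians as black lines. The snRNAs in red and orange were selected on this contrast. In grey, the small RNAs were taken by name, and the protein genes come from lists made with earlier results of these data known. The 11 red points lie between 1.25 and 2.71, while the medians are 0.29 for the scaRNAs, -0.0055 for RMRP, RPPH1 and the vault RNAs and 0.20 for the protein genes.

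The measured genes that make and package snRNAs had log2 changes from -1.22 for INTS1 to 1.14 for USPL1. These cannot be ranked against the 11 snRNA clusters, which were picked for large change on this contrast. In the nucleus, snRNAs are transcribed with the help of the SNAPc and little elongation complexes and cut at the 3′ end by the Integrator complex; in the cytoplasm most receive a ring of Sm proteins. Of 151 genes in 6 lists of such factors and of genes with minor introns, 94 had a named transcript cluster. limma called 8 of these higher and 2 lower, or 10.6%, against 2.56% of all clusters and 3.87% of those with a gene name. Since the lists were drawn up with earlier results of these data known, that share is not independent of them. The backgrounds were also not matched for signal, as none of the 94 lay below the array median on all 6 arrays. With limma on the brighter 50% of clusters only, 1282 clusters were called higher and 1466 lower, with 19 and 3 of the list genes. The median change of the 94 was 0.20, and 73 changes were above 0 and 21 below, where 50.3% of the named clusters were above 0. At an unadjusted p under 0.05, 36 were higher and 4 lower, beside the 10.3% and 12.4% of named clusters. Leaving out 1 array gave 0 to 3 higher and 0 to 2 lower calls, with 0 in both directions without control replicate 2.

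Transcription and 3′ end factors held the largest changes. INTS1, the scaffold subunit of Integrator, gave 7.01, 6.99 and 6.87 against 5.59, 5.87 and 5.74 and so fell by 1.22 (SE 0.11, adjusted p = 0.00786). NABP1, a single-stranded DNA binding protein that associates with the Integrator subunit INTS3, rose by 1.02 (adjusted p = 0.0240). The other 16 measured factors of 3′ processing did not pass, among them INTS5 at -0.56 (adjusted p = 0.0618) and INTS8 at 0.47 (adjusted p = 0.0648), and the list's median was 0.24.

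Of the 10 measured genes of snRNA transcription, USPL1 rose and ZNF76 fell, and the median was 0.23. USPL1, a Cajal body protein that takes part in snRNA transcription by RNA polymerase II, gave 8.08, 8.21 and 8.36 against 9.37, 9.28 and 9.41, a change of 1.14 (SE 0.11, adjusted p = 0.0087). ZNF76, a zinc finger activator of snRNA genes, changed by -0.90 (adjusted p = 0.0128). ICE1, a subunit of the little elongation complex, had a change of 0.59 that did not pass (adjusted p = 0.0567). The calls of INTS1 and USPL1 were lost only without control replicate 2 (adjusted p = 0.0529 and 0.0544), among the 6 arrays left out in turn. Those of the other 8 called genes were each lost without any of 4 or more arrays, control replicate 2 always among them (adjusted p up to 0.168).

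Of 32 measured Sm and major snRNP genes, limma called 4 higher and 0 lower, with a median of 0.22; at an unadjusted p under 0.05 these counts were 15 and 0, beside the same 10.3% and 12.4%. SNRPE and SNRPF, both members of the Sm ring, rose by 0.77 (adjusted p = 0.0335) and 0.52 (adjusted p = 0.0473), and PRPF3 and PRPF4, proteins of the U4/U6 snRNP, by 0.69 (adjusted p = 0.0440) and 0.48 (adjusted p = 0.0478). In the list of export, cap and assembly factors, PRMT5, which methylates Sm proteins, was the only 1 of 16 called, with a change of 0.48 (adjusted p = 0.0486) and a list median of 0.17. PRMT5 lost its call when each array was centred on its median (adjusted p = 0.0532), and PRMT5, PRPF4 and CRIPT lost theirs under quantile normalization (adjusted p = 0.0567, 0.0624 and 0.0521).

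Of 9 measured minor spliceosome proteins, only CRIPT was called, at 0.62 (adjusted p = 0.0499), and RBM48, another protein of that spliceosome, had 0.42 (adjusted p = 0.126). The list's median was 0.15. Among 9 measured genes that carry minor introns, the substrates of U12 and U6atac, limma called 0 in either direction, 1 was higher and 0 lower at an unadjusted p under 0.05, the median was 0.09 and the lowest adjusted p was 0.20. The 4 with the smallest p were E2F3 at 0.29, MAPK9 at -0.25, NOP2 at 0.20 and E2F1 at -0.25, genes of the cell cycle, stress signalling and ribosome assembly. The array reports on whole genes, so retention of single introns was not measured.

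**Figure D3:**
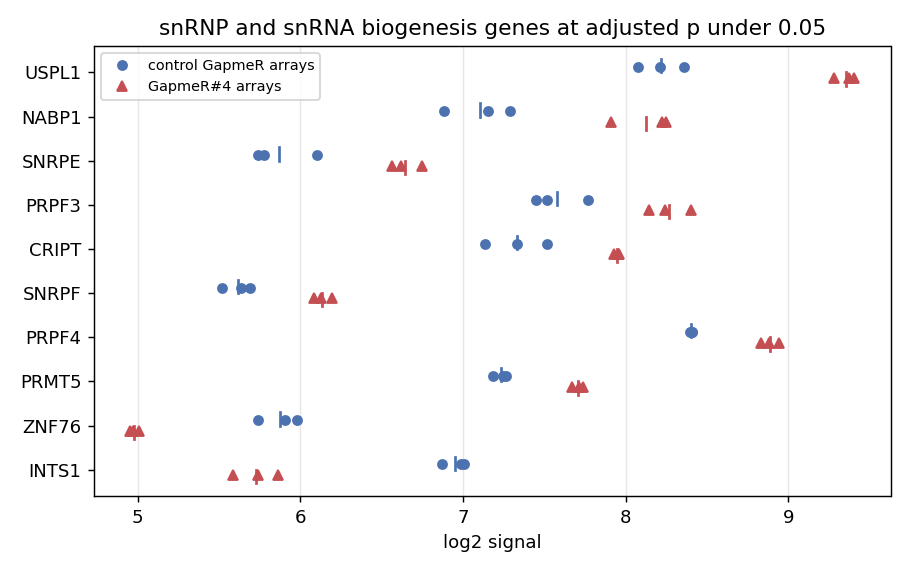
Log2 signal of the 10 snRNP and snRNA biogenesis genes at a limma adjusted p under 0.05 (rows) on the 3 control GapmeR arrays (circles) and the 3 GapmeR#4 arrays (triangles), with group means as short vertical lines. ZNF76 and INTS1 are lower on all GapmeR#4 arrays and the other 8 are higher, and USPL1 has the largest rise at 1.14.

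The genes next to the snRNAs had a median log2 change of 0.00489, beside 0.0021 over named clusters. The nearest named genes on both sides, and those that overlap, were taken from the RefSeq annotation of GRCh38.p14 after the snRNA values were seen, and gave 26 clusters of 22 genes. limma called 0 of these higher and 2 lower, where 235 and 388 of the 16098 named clusters were called. At that share, 0 higher calls among 26 clusters is not a finding about the neighbours. At an unadjusted limma p under 0.05, 2 were higher and 4 lower, beside 10.3% and 12.4% of named clusters. KRCC1, the next named gene to RNU2-63P, gave 8.19, 8.36 and 8.42 against 6.53, 6.003 and 5.59 and fell by 2.28 (adjusted p = 0.0089), opposite to the change of RNU2-63P of 1.66. NSF, a factor of vesicle fusion near RNU6ATAC3P, fell by 0.96 (adjusted p = 0.0194). Beside RNU12, CYB5R3 had a change of -0.62 that did not pass (adjusted p = 0.0805), and beside RNU6ATAC, WDR5 had one of 0.002 (adjusted p = 0.995). TEX14, which overlaps RNVU1-34, had 0.20 (adjusted p = 0.42). Among the arrays left out in turn, the call of KRCC1 was lost only without control replicate 2 (adjusted p = 0.0529), and that of NSF without any of 5 arrays (up to 0.0849).

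**Figure D4:**
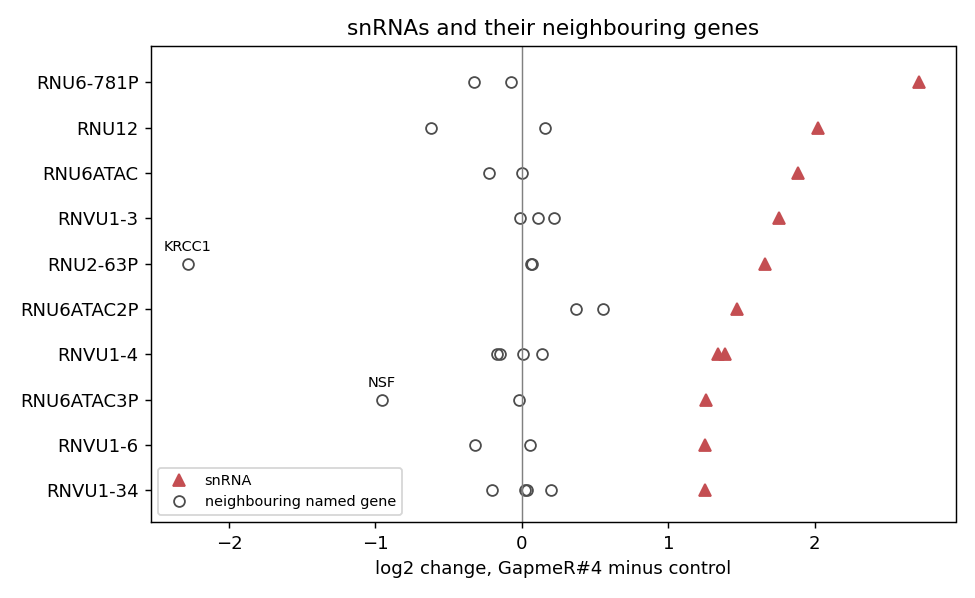
Log2 change (GapmeR#4 minus control, horizontal axis) of each snRNA (triangles) and of the nearest or overlapping genes with a named transcript cluster (open circles), by snRNA (rows). The snRNAs, selected on this contrast, lie at 1.25 or above, and the neighbours lie between -2.28 for KRCC1 and 0.56 for SETD9.

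Among clusters with 1 gene symbol, the 5 whose values were most like the mean of RNU12 and RNU6ATAC over the 6 arrays were PLIN2, KIAA1191, FAAP24, SCARNA17 and GINS3, with Pearson r from 0.998 for PLIN2 to 0.995 for GINS3. PLIN2, a lipid droplet coat protein, rose by 1.01 (adjusted p = 0.00832, limma) and FAAP24, a Fanconi anemia core complex protein, by 0.78 (adjusted p = 0.0201). KIAA1191 had 0.28 (adjusted p = 0.183) and GINS3, a replication protein, 0.37 (adjusted p = 0.0924). All 5 had groups that did not overlap, so the r reflects mainly the distance between the groups.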

How the data were processed

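Per the submitters' processing notes, Affymetrix Expression Console was used, and the authors deposited log2 signals of 53617 transcript clusters. For its version, the normalization and the genome build, the sources used here give nothing. Signals were used as deposited, with limma 3.58.1 in R 4.3.3 on all clusters, without a filter, 2-sided, with Benjamini-Hochberg adjustment. The number of arrays limits the precision. Names of the snRNAs came from the study's supplementary list, whose values and authors' comparisons were not used, all other names from the platform annotation, and neighbors from the RefSeq gene table of GRCh38.p14. For genes with several clusters the brightest was used. Members and gene lists were chosen with earlier results of these data known. Named genes are all members, NRAD1, called genes of each list with those of smallest p, the 5 genes most like the minor snRNAs and, as stated, genes chosen after their values were seen. The scripts were tested on simulated data. Alternatives were array scaling, a brightness filter, variance models, a replicate block, the methods' t-test, gene averages and leaving out arrays.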

Additional observations from a re-analysis of the deposited data

How the results depend on the processing

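The median snRNA change stayed between 1.41 and 1.62 under 9 alternatives, and each of 88 single snRNA values moved by less than 1 SD (range 1.01 to 2.97). With 1 of 3 arrays left out, a shift of 1 SD is not possible. That part of the result was fixed in advance and only the range is informative there. For the median the alternatives included leaving out RNVU1-34, chosen after seeing the data. The minor minus major difference was 0.47 to 0.67 with 1 array left out, 0.33 with means over copies, 0.29 with the U6atac pseudogenes as minor and 0.59 without RNU6-781P, the last also chosen after seeing the data. None of these counted RNU4ATAC, whose change of 0.92 was below that of every major copy. NRAD1 stayed lower and short of the threshold in 12 alternatives (adjusted p = 0.0765 to 0.235).

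Counts of calls depended on the model. Over all clusters, higher and lower, they were 1282 and 1466 among the brighter 50%, 1176 and 1273 with a trend and robust prior, 8 and 4 with the methods' t-test after adjustment (562 and 554 at an unadjusted p under 0.05 and over 1.7-fold), and 44 to 269 and 23 to 236 with 1 array left out. Among the snRNP and biogenesis genes they were 19 and 3 in the brighter 50%, 16 higher with the trend, 5 higher under quantile normalization, and 0 and 0 with the t-test. Leaving out 1 array gave 0 to 3 higher and 0 to 2 lower. Among the scaRNAs and other small RNAs, the brighter 50% and the trend each gave 2 higher and 1 lower, array weights 1 lower, the t-test 0 higher, and leaving out 1 array 0 and 0.

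Replicate numbers left no visible pairing in the values: deviations of same-numbered arrays correlated at -0.06, -0.00 and -0.02. The labels do not say whether same-numbered cultures were handled together, and these correlations cannot settle it. With the number as a replicate block, 55 clusters were called higher and 35 lower, with 0 and 0 in the snRNP genes and 0 higher among the small RNAs. Low signal limits RNU6ATAC3P, below the array median throughout, and RNU6-781P and RNVU1-6, near or below it in control.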
